A study of Mus musculus with 6 samples.

Results

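The 32 genes described here encode the transporters and enzymes that take glucose into a cell, break it down to pyruvate and lactate, pass pyruvate to the mitochondria, or divert glucose 6-phosphate into the pentose phosphate pathway. They were chosen by symbol, and each of the 32 was found once among the 24147 rows of the deposited gene tables. RNA came from wild type C57BL/6 mice 2 months old whose lens fiber cells had been removed through the cornea, a model of cataract surgery that leaves the capsule and its lens epithelial cells in the eye. The capsule with its attached cells was isolated at once in 1 group (0 h, 3 libraries) and 24 h after surgery in the other (3 libraries). Both groups had therefore been operated on, and neither is an intact lens. The series calls the libraries biological triplicates, with the number of eyes or animals behind each not given in the sources used here.

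Glucose enters through facilitative carriers, is trapped by hexokinase, committed to glycolysis by phosphofructokinase, split by aldolase and oxidised to pyruvate, with a net gain of ATP that needs no oxygen. Lactate dehydrogenase then turns pyruvate into lactate, which leaves through monocarboxylate transporters, or pyruvate dehydrogenase passes the carbon into the mitochondria. The lens has no blood vessels and lies at low oxygen, and it draws most of its ATP from glycolysis. The pentose phosphate pathway supplies the NADPH that keeps lens glutathione reduced.

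The libraries held 8069314 to 10862573 summed gene counts. The ribosomal RNA precursor row Rn45s took 2.44% to 3.45% of counts at 0 h and more in every 24 h library, up to 15.4% in replicate 1. The defining lens genes were present at both times. The crystallin Cryaa was the most abundant gene of the lens epithelium list, at 88070.5 ± 22743 CPM (counts scaled to library size with TMM factors, mean ± SD, n = 3) at 0 h and 46169.6 ± 4955 CPM at 24 h. It also counts among the crystallin and fiber genes left out of 1 alternative scaling. Its level is therefore not read as that of epithelial cells. Other cells were present too. Summed over 11 photoreceptor markers, the libraries had 3948, 6489.8 and 2083 CPM at 0 h and 3163, 5108 and 1135 CPM at 24 h in replicates 1 to 3. Summed over 8 neuron markers the values were 333, 362 and 151 CPM at 0 h and 386, 285 and 84.8 CPM at 24 h, so replicate 3 was lowest at both times in both lists.

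At 24 h the pathway had not moved as a block. The genes of the oxidative pentose phosphate branch (G6pdx, Pgd) and Taldo1 rose, as did Hk2, the lactate carrier Slc16a1 and Pdk3, while the brain-type aldolase Aldoc, transketolase (Tkt), Pdk1, Pdk2, Ldhb and Pfkm fell. The other tested genes from Gpi1 to Pkm, and Ldha, were not called. Of the 32 members 31 passed the filter on low counts. Of the 31, 6 were higher and 6 lower at 24 h by edgeR's quasi-likelihood test at an adjusted p under 0.05 over all 13956 genes tested (19.4% in each direction). Over all genes tested 15.2% were higher and 13.0% lower, so the members' shares lie near those of the whole table. The count of higher members was 2 without 0 h replicate 3, 3 without 24 h replicate 1 and 4 without 0 h replicate 2, while 6 or 7 were lower whichever library was left out. The median log2 fold change was 0.13 over the members and -0.03 over all genes tested. For 13 of the 31 members the 24 h libraries did not overlap the 0 h libraries, 7 above and 6 below, against 22.9% of all genes tested above and 21.8% below (44.7% in all). The 32 members together took 1.09% ± 0.0098 of all counts at 0 h and 0.947% ± 0.206 at 24 h, which an exact two-sided permutation test did not separate (p = 0.4, where 3 against 3 libraries cannot go below 0.1). This difference of -0.138 percentage points was -0.257 without 24 h replicate 2 (exact permutation p = 0.1), -0.0763 without 24 h replicate 1 and -0.0809 without 24 h replicate 3. All counts, here and below, include the Rn45s row. That row took 2.44% to 3.45% at 0 h and more in every 24 h library, up to 15.4%. The part of Rn45s in this difference was not tested.

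**Figure D1:**
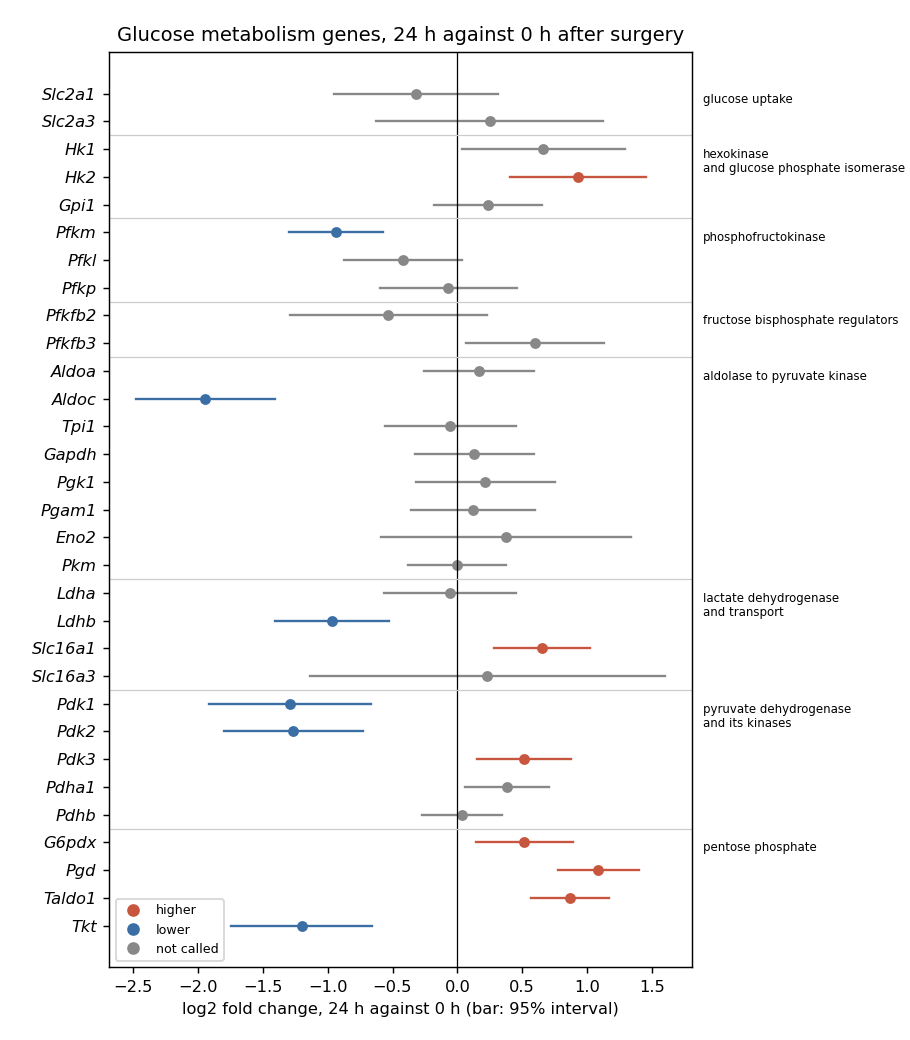
Log2 fold change of 24 h against 0 h (horizontal axis) for the 31 members tested, ordered by role, with approximate 95% intervals from the spread between 3 and 3 libraries. Red marks the 6 members called higher, blue the 6 called lower and grey the 19 not called; Aldoc lies lowest at -1.94 and Pgd highest at 1.09.

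Of the glucose carrier genes among the members, Slc2a1, the GLUT1 carrier of the blood-eye barriers and the lens, was the more abundant. Per kilobase of transcript it stood at 457 ± 84.1 CPM per kb at 0 h, against 3.03 ± 0.715 CPM per kb for Slc2a3, the high-affinity GLUT3 carrier of neurons. Slc2a1 (chromosome 4, 119108745 to 119137329) had 979, 1141 and 1408 CPM in replicates 1 to 3 at 0 h and 739, 1354 and 734 CPM at 24 h. Replicate 2 at 24 h lay within the 0 h range while replicates 1 and 3 lay below it, and the gene was not called (adjusted p = 0.433). Slc2a3 had 10.7, 15.2 and 10.01 CPM in replicates 1 to 3 at 0 h and 17.4, 18.9 and 6.56 CPM at 24 h, with overlapping groups (adjusted p = 0.674).

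Hexokinase 2, the insulin-responsive form of muscle and fat, was the glycolytic enzyme gene that rose. Hk2 (chromosome 6, 82725027 to 82774454) had 81.97, 86.4 and 61.3 CPM in replicates 1 to 3 at 0 h and 123, 198 and 117 CPM at 24 h. Every 24 h library lay above every 0 h library, with a log2 fold change of 0.93 ± 0.23 (SE, n = 3 and 3, adjusted p = 0.0174). The call was lost without 0 h replicate 3 (adjusted p = 0.0615) and against a 1.5-fold change (adjusted p = 0.158). Hk1, the constitutive hexokinase of brain and red cells, had 175, 205 and 118 CPM in replicates 1 to 3 at 0 h and 256, 352 and 179.96 CPM at 24 h. Its groups overlapped through 24 h replicate 3 and it was not called (adjusted p = 0.109), but it was called higher without that library (adjusted p = 0.0313) and with the photoreceptor level as a covariate (adjusted p = 0.00187). Per kilobase Hk1 stood above Hk2 at both times, at 36.8 ± 9.82 against 13.9 ± 2.43 CPM per kb at 0 h and 58.3 ± 19.2 against 26.5 ± 8.18 CPM per kb at 24 h. Gpi1, which turns glucose 6-phosphate into fructose 6-phosphate, had 359.7, 393 and 381 CPM in replicates 1 to 3 at 0 h and 434, 545 and 356 CPM at 24 h, and its groups overlapped (adjusted p = 0.381).

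Among the phosphofructokinases, the committed step of glycolysis, the muscle form fell and the platelet and liver forms were not called. Pfkm (chromosome 15, 98092589 to 98132447) had 76.8, 66.03 and 53.9 CPM in replicates 1 to 3 at 0 h and 36.4, 33.3 and 33.1 CPM at 24 h. No 24 h library reached the lowest 0 h library, with a log2 fold change of -0.94 ± 0.16 (SE, n = 3 and 3, adjusted p = 0.00316), and a test against a 1.5-fold change gave no call (adjusted p = 0.0565). Per kilobase Pfkl stood at 50.5 ± 2.72 and Pfkp at 47.2 ± 13.1 CPM per kb at 0 h, and at 37.7 ± 10.6 and 45.01 ± 9.88 CPM per kb at 24 h, so neither led beyond its spread. Pfkp, with the higher mean over the 6 libraries, had 152, 258 and 183 CPM in replicates 1 to 3 at 0 h and 178, 234 and 154 CPM at 24 h, with overlapping groups (adjusted p = 0.856). Pfkl had a log2 fold change of -0.42 (adjusted p = 0.151), and was called lower without 24 h replicate 2 (adjusted p = 0.0178).

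The bifunctional enzymes that make and remove fructose 2,6-bisphosphate, the activator of phosphofructokinase, were not called. Pfkfb3, the form with the strongest kinase activity, had 75.9, 91.8 and 107 CPM in replicates 1 to 3 at 0 h and 122, 189 and 105 CPM at 24 h. Its 24 h replicate 3 lay just under the highest 0 h library (adjusted p = 0.0894), and the gene was called higher without 24 h replicate 3 (adjusted p = 0.0339). Pfkfb2, the heart-type form, had 65.1, 118 and 63.2 CPM in replicates 1 to 3 at 0 h and 64.7, 73.1 and 32.5 CPM at 24 h (adjusted p = 0.274), and its lowest library was 24 h replicate 3.

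From aldolase to pyruvate kinase, 1 of the 8 members tested fell (12.5%, against 13.0% of all genes tested). None rose, against 15.2% of all genes tested. The member that fell was Aldoc, the brain-type aldolase, which at 0 h was the most abundant of the 32 genes per kilobase at 929 ± 215 CPM per kb, ranking 28th of all rows of the table. Aldoc (chromosome 11, 78324198 to 78326760) had 1899.8, 1182 and 1664 CPM in replicates 1 to 3 at 0 h and 457, 330.4 and 446 CPM at 24 h. The highest 24 h library was under the lowest 0 h library by a wide margin, and the gene fell 3.85-fold, with a log2 fold change of -1.94 ± 0.24 (SE, n = 3 and 3, adjusted p = 0.000669). No member fell by at least 4-fold, as 1.57% of all genes tested did. Aldoc was called under all 16 alternatives, with log2 fold changes from -2.12 to -1.76. At 24 h it ranked 146th. Aldoa, the ubiquitous aldolase, was not called at a log2 fold change of 0.17 (adjusted p = 0.555). Lens fiber markers fell beside Aldoc: 10 of 11 were called lower (90.9%, against 13.0% of all genes tested) and none higher, with a median log2 fold change of -1.56. Summed over that list, the libraries had 55015, 33205 and 40763 CPM at 0 h and 15349.8, 17878 and 16169 CPM at 24 h, with Crybb2 as its most abundant gene, and the part of fiber remnants in the fall of Aldoc was not tested. In these bulk libraries fewer cells of a type and less RNA per cell cannot be told apart.

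Gapdh, often used as a reference gene, was the most abundant enzyme of this stretch per kilobase over all 6 libraries and had 978, 741 and 835 CPM in replicates 1 to 3 at 0 h and 795, 1141 and 862 CPM at 24 h (adjusted p = 0.672). Its groups overlapped, as did those of Tpi1, Pgk1, Pgam1, Eno2 and Pkm. Their log2 fold changes ran from -0.05 for Tpi1 (triose phosphate isomerase) to 0.37 for Eno2 (neuronal enolase), and Pkm, pyruvate kinase of most tissues, stood at 1319 CPM at 0 h and 1318 CPM at 24 h. The 95% interval of Pkm ran from -0.38 to 0.38 on the log2 scale. Eno2 had 63.4, 77.2 and 35.8 CPM in replicates 1 to 3 at 0 h and 99.6, 97.9 and 31.6 CPM at 24 h, and was lowest in replicate 3 at both times, as the neuron markers were. With the photoreceptor level as a covariate Eno2 was called higher (adjusted p = 0.0126, and 0.555 without it).

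Eno1, the enolase of most tissues, could not be read from these tables. Its row held 5, 3 and 3 counts at 0 h and 5, 14 and 3 counts at 24 h, and it was the member that did not pass the filter. The row (chromosome 4, 150237197 to 150248873) spans a second row named Eno1b (150237324 to 150248873), which had 0 counts in every library. Of 1978 windows of 50 bases in the longest Eno1 coding transcript of GENCODE M21, 72.2% also occur in transcripts of other genes, most of them (70.5%) in Eno1b. A further Eno1b row on chromosome 18 had 32, 34 and 30 counts at 0 h and 19, 447 and 37 counts at 24 h. The same window search gave 82.5% for Gapdh, 68.0% for Pgk1 and 41.5% for Pgam1, which have many processed copies, so their levels may depend on how reads with several matches were counted, a step not given in the sources used here. Of the 12 called members 9 had no shared window, among them Aldoc and Tkt, and Ldhb had the highest share of the other 3 at 27.0%.

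Of the lactate dehydrogenase subunits the heart type fell and the muscle type was not called. Ldhb (chromosome 6, 142490249 to 142507943), whose subunit favours the oxidation of lactate, had 78.8, 95.1 and 66.7 CPM in replicates 1 to 3 at 0 h and 50.4, 33.3 and 39.8 CPM at 24 h. The groups did not overlap and the gene fell 1.95-fold, with a log2 fold change of -0.96 ± 0.19 (SE, n = 3 and 3, adjusted p = 0.00678), though a test against a 1.5-fold change gave no call (adjusted p = 0.0824). Ldha, the muscle-type subunit and the most abundant gene of this group per kilobase, had 529, 576 and 539.5 CPM in replicates 1 to 3 at 0 h and 447, 717 and 416 CPM at 24 h. It was not called (adjusted p = 0.876), with replicate 2 above and replicates 1 and 3 below all 0 h libraries.

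The lactate and pyruvate carrier MCT1, encoded by Slc16a1 (chromosome 3, 104638664 to 104658462), rose. It had 45.8, 63.4 and 54.1 CPM in replicates 1 to 3 at 0 h and 97.8, 78.1 and 80.7 CPM at 24 h. The groups did not overlap, with a log2 fold change of 0.65 ± 0.16 (SE, n = 3 and 3, adjusted p = 0.0176). The call was lost without 0 h replicate 3 (adjusted p = 0.0549), without 24 h replicate 1 (adjusted p = 0.0541) and against a 1.5-fold change (adjusted p = 0.524). Slc16a3, which encodes the lactate exporter MCT4 of glycolytic cells, had 27.5, 48.4 and 58.3 CPM in replicates 1 to 3 at 0 h and 22.9, 112 and 21.7 CPM at 24 h. Replicate 2 lay above all 0 h libraries and replicates 1 and 3 below them all, so its test value (log2 fold change 0.23, adjusted p = 0.812) averages libraries that went opposite ways. Without 24 h replicate 2 the log2 fold change was -1 (adjusted p = 0.0523).

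At the gate between glycolysis and the mitochondria, the kinases that switch off pyruvate dehydrogenase changed and the enzyme itself was not called. Pdk2 (chromosome 11, 95026258 to 95041371), the most abundant of the kinases per kilobase at 0 h, had 207, 176 and 174 CPM in replicates 1 to 3 at 0 h and 94.1, 49.5 and 88.3 CPM at 24 h. Pdk1 (chromosome 2, 71873224 to 71903858), a kinase known as a target of hypoxia-inducible factor, had 66.3, 95.99 and 105 CPM in replicates 1 to 3 at 0 h and 31.5, 51.9 and 25.8 CPM at 24 h. In both genes all 24 h libraries lay below all 0 h libraries. The falls were 2.41-fold for Pdk2 and 2.44-fold for Pdk1, with a log2 fold change of -1.27 ± 0.24 (SE, n = 3 and 3, adjusted p = 0.00487) and a log2 fold change of -1.29 ± 0.28 (SE, n = 3 and 3, adjusted p = 0.00918). Both were called under all 16 alternatives.

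Pdk3 (chromosome X, 93764616 to 93832095) went the other way. It had 31.2, 22.8 and 26.2 CPM in replicates 1 to 3 at 0 h and 36.4, 38.2 and 39.9 CPM at 24 h, without overlap, and a log2 fold change of 0.51 ± 0.16 (SE, n = 3 and 3, adjusted p = 0.0415). The call was lost without 0 h replicate 2, without 0 h replicate 3 and without any of the 24 h libraries (adjusted p from 0.0587 to 0.136), with no filter on low counts (adjusted p = 0.0535), with the photoreceptor covariate (adjusted p = 0.0611) and against a 1.5-fold change (adjusted p = 0.912). Pdha1, the catalytic alpha subunit of pyruvate dehydrogenase, had 63.6, 61.02 and 52.95 CPM in replicates 1 to 3 at 0 h and 82.1, 67.01 and 82.8 CPM at 24 h. Its groups did not overlap but it was not called (adjusted p = 0.0756), except with library totals only (adjusted p = 0.0484) and without 24 h replicate 2 (adjusted p = 0.0461). The beta subunit gene Pdhb had a log2 fold change of 0.04 (adjusted p = 0.87).

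All 4 pentose phosphate members were called, in opposite directions, where 28.2% of all genes tested were called. Pgd (chromosome 4, 149149985 to 149166707), 6-phosphogluconate dehydrogenase and the second NADPH-making step, had 49.9, 45.4 and 54.8 CPM in replicates 1 to 3 at 0 h and 98.9, 101 and 119 CPM at 24 h. It rose 2.13-fold, the largest rise of the 31 members tested, with a log2 fold change of 1.09 ± 0.14 (SE, n = 3 and 3, adjusted p = 0.000828), and was called under all 16 alternatives. Taldo1 (chromosome 7, 141392160 to 141402976), transaldolase of the non-oxidative branch, had 54.7, 44.2 and 50.9 CPM in replicates 1 to 3 at 0 h and 85.4, 95.4 and 93.04 CPM at 24 h. It rose 1.83-fold (adjusted p = 0.00195), with no call in the test against a 1.5-fold change (adjusted p = 0.0612).

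G6pdx (chromosome X, 74409486 to 74429161), glucose 6-phosphate dehydrogenase and the entry step of the pathway, had 96.6, 73.6 and 73.9 CPM in replicates 1 to 3 at 0 h and 132, 102 and 116 CPM at 24 h. The groups were separate, with a log2 fold change of 0.52 ± 0.16 (SE, n = 3 and 3, adjusted p = 0.0444). Leaving out any single library other than 0 h replicate 1 and 24 h replicate 2 ended the call (adjusted p between 0.0781 and 0.14), as did the photoreceptor covariate (adjusted p = 0.0582) and a test against a 1.5-fold change (adjusted p = 0.899).

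Tkt (chromosome 14, 30549131 to 30574726), transketolase of the non-oxidative branch, ranked second among the 32 genes per kilobase at 0 h, at 572 ± 121 CPM per kb, where Gapdh had 569 ± 79.9. It had 2072, 1396 and 2073 CPM in replicates 1 to 3 at 0 h and 782, 648 and 979.8 CPM at 24 h. All 24 h libraries were below all 0 h libraries, with a log2 fold change of -1.20 ± 0.24 (SE, n = 3 and 3, adjusted p = 0.00637), and the gene was called under all 16 alternatives. Aldoc and Tkt together made up 33.9%, 25.0% and 32.4% of the members' counts in replicates 1 to 3 at 0 h and 14.6%, 9.02% and 17.5% at 24 h. Without this pair the members took 0.755% ± 0.0588 of all counts at 0 h and 0.823% ± 0.221 at 24 h (exact two-sided permutation test, p = 1). Tkt is also an abundant gene of the cornea. Of 5 corneal epithelium markers 4 were tested, with 2 called higher (50.0%, against 15.2% of all genes tested) and 1 lower (25.0%, against 13.0%). Aldh3a1 fell beside Tkt and the keratin Krt5 rose. The mean of Krt12 rose too, though its lowest value of all libraries lay in 24 h replicate 2. Aldh3a1, the most abundant, had 1106, 776 and 740.02 CPM in replicates 1 to 3 at 0 h and 324, 344 and 619 CPM at 24 h, and Krt12, the cornea-specific keratin, 0.301, 1.70 and 0.61 CPM in replicates 1 to 3 at 0 h and 9.46, 0.212 and 35.6 CPM at 24 h. The list summed to 1115, 787 and 751 CPM at 0 h and 410.4, 355 and 704 CPM at 24 h. The part of corneal cells in the fall of Tkt was not tested.

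**Figure D2:**
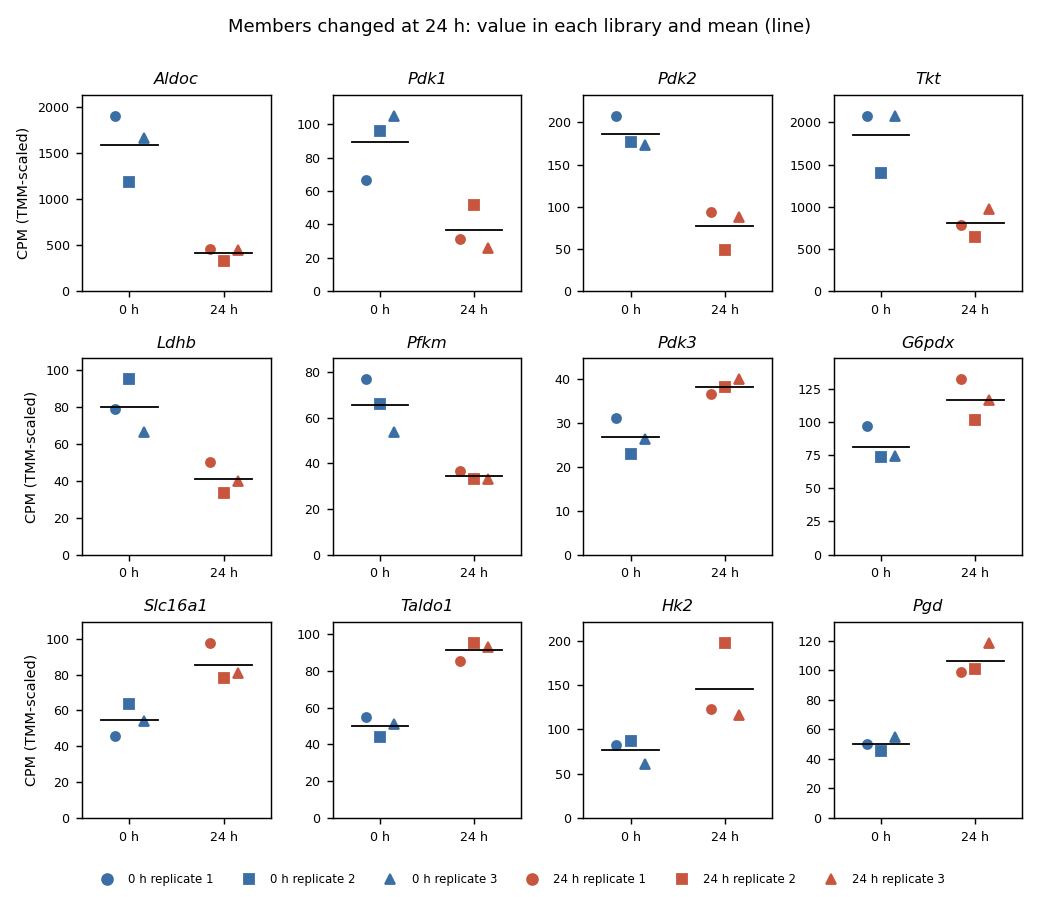
TMM-scaled CPM (vertical axes, from 0) in each library for the 12 members called at 24 h against 0 h, ordered from the largest fall (Aldoc) to the largest rise (Pgd); marker shape gives the replicate, colour the time and the line the mean of 3 libraries. In all 12 panels, chosen by the test on these same libraries, the 2 times do not overlap, as for 44.7% of all genes tested.

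Isoenzymes of one step can be compared within a library, which removes the scaling between libraries. Each share is a gene's part of its family's summed level per kilobase, and 10 shares were tested by exact two-sided permutation, where no adjusted p can be under 0.1. Of the aldolase level, Aldoc made up at 0 h 71.3%, 60.9% and 71.1% (replicates 1 to 3) and at 24 h 37.2%, 24.8% and 38.96%. By the deposited lengths the leading aldolase gene was Aldoc in every 0 h library and Aldoa in every 24 h library (exact p = 0.1, adjusted p = 0.2). Of the lactate dehydrogenase level Ldha made up 82.1% ± 2.11 at 0 h and 88.9% ± 4.13 at 24 h, and the groups did not overlap (exact p = 0.1, adjusted p = 0.2).

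Of the phosphofructokinase level, Pfkp made up 39.1% ± 6.35 at 0 h and 47.9% ± 0.351 at 24 h and Pfkm 18.2% ± 4.21 at 0 h and 12.3% ± 2.57 at 24 h, each without overlap (p = 0.1 and adjusted p = 0.2 for both by exact permutation). Pfkl made up 42.7% ± 4.28 at 0 h and 39.8% ± 2.49 at 24 h, as a description. Pfkfb3 made up 67.4% ± 8.42 at 0 h and 81.8% ± 4.10 at 24 h of the level of Pfkfb2 and Pfkfb3, also without overlap (exact p = 0.1, adjusted p = 0.2). Among the Pdk genes the share of Pdk3 was 11.8% ± 1.20 at 0 h and 32.1% ± 4.98 at 24 h and that of Pdk2 72.8% ± 3.35 and 55.7% ± 11.1, as a description. Pdk1 made up 15.4% ± 4.14 at 0 h and 12.2% ± 6.47 at 24 h (exact p = 0.5). Of the hexokinase level Hk2 made up 27.7% ± 2.11 at 0 h and 31.5% ± 3.19 at 24 h (exact p = 0.2, adjusted p = 0.333), so Hk1 remained the leading form at both times. The shares of Slc16a3, Slc2a3 and Eno2 gave exact p-values of 0.4, 0.4 and 0.5, and that of Eno2 rests on the unreadable row of Eno1.

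**Figure D3:**
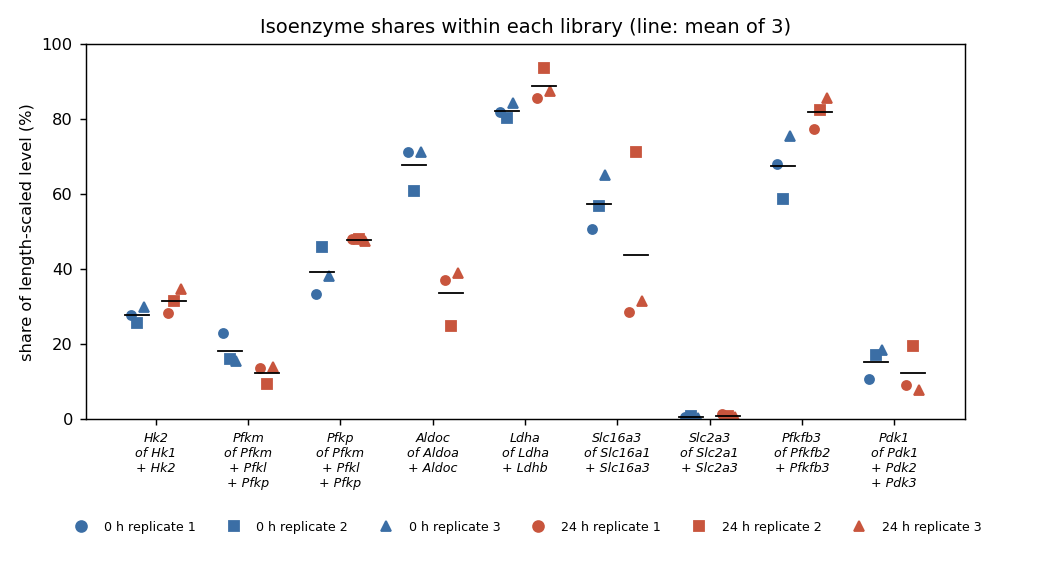
Share of each named isoenzyme in the length-scaled level of its family (vertical axis, percent) in each library at 0 h (blue) and 24 h (red), with lines at the mean of 3 libraries. The Aldoc share is between 60.9% and 71.3% at 0 h and between 24.8% and 39.0% at 24 h; the Slc16a3 share of 24 h replicate 2 stands apart from the other 24 h libraries.

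At 24 h many members were highest in 1 library. Of the 31 members tested 19 (61.3%) had their highest 24 h value in replicate 2, against 35.3% of all genes tested, a library singled out after its values were seen. These 19 took in both glucose carriers, both hexokinases, Gpi1, Pfkl, Pfkp, both Pfkfb genes and 6 of the 8 members tested from aldolase to pyruvate kinase. The ratio of replicate 2 to the mean of the other 24 h libraries was 5.05 for Slc16a3, 1.84 for Slc2a1, 1.81 for Pdk1, 1.74 for Pgk1, 1.65 for Hk2 and 1.66 for Ldha. A ratio of 2 was reached by 4.03% of all genes tested and, among the 31 members tested, by Slc16a3. Of the 4 pentose phosphate genes Taldo1 was highest in replicate 2, and their ratios ran from 0.735 for Tkt to 1.07 for Taldo1.

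A list of 20 hypoxia-inducible factors, their regulators and their known targets, which holds none of the 32 members, was set beside this order. Of the 20 genes 14 (70.0%) had their highest 24 h value in replicate 2, against 35.3% of all genes tested. Their highest value of all 6 libraries lay there for 6 of the 20, as for 20.8% of all genes tested. Car9, a carbonic anhydrase of hypoxic cells, had 5.81, 13.4 and 11.8 CPM in replicates 1 to 3 at 0 h and 5.37, 98.6 and 5.92 CPM at 24 h, and its ratio was 17.5. Vegfa, the vascular growth factor, had 39.3, 109 and 82.8 CPM in replicates 1 to 3 at 0 h and 62.5, 156 and 40.1 CPM at 24 h. Egln3 is an oxygen-sensing prolyl hydroxylase and had 23.5, 23.8 and 23.4 CPM in replicates 1 to 3 at 0 h and 24.4, 49.7 and 13.9 CPM at 24 h. Bnip3, a mitophagy receptor, had 63.2, 76.6 and 82.4 CPM in replicates 1 to 3 at 0 h and 47.2, 96.1 and 29.3 CPM at 24 h. In each of these, chosen after their values were seen, 24 h replicate 2 was the highest of the 6 libraries. Hif1a itself, also chosen after its values were seen, had its lowest value there, with 1085, 752 and 1102 CPM in replicates 1 to 3 at 0 h and 673, 443 and 709 CPM at 24 h. Markers of other cells differed in this library too. Photoreceptor markers had their highest 24 h value there in 9 of 11 cases (81.8%, against 35.3% of all genes tested), with the summed levels given above. Summed over the ciliary, iris and pigment epithelium list the 24 h libraries had 881, 123 and 597 CPM, and over the smooth muscle list, led by Smtn, 114, 48.2 and 114 CPM, so replicate 2 was the lowest in both. The part of these cells in the order of the members was not tested.

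**Figure D4:**
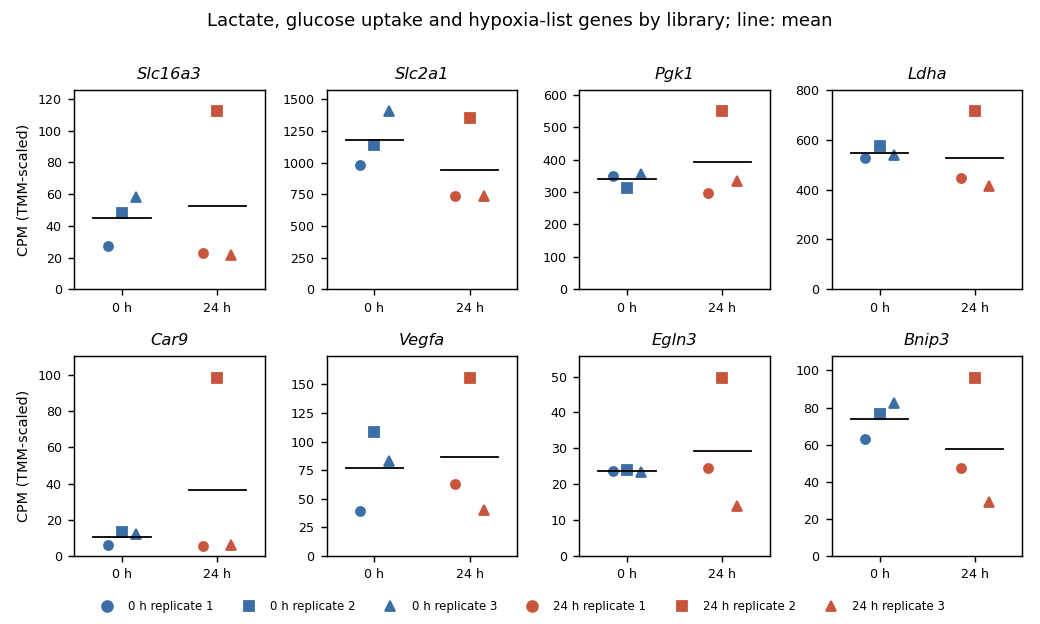
TMM-scaled CPM (vertical axes, from 0) in each library for Slc16a3, Slc2a1, Pgk1 and Ldha (upper row) and for Car9, Vegfa, Egln3 and Bnip3 of the hypoxia list (lower row); marker shape gives the replicate, colour the time and the line the mean of 3 libraries. The square of 24 h replicate 2 is the highest 24 h point in all 8 panels, and Slc16a3 reads 112 CPM there against 22.9 and 21.7 CPM.

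Promoter windows are printed for 4 members that were high in 24 h replicate 2 (Slc16a3, Ldha, Pgk1 and Hk2), for the pair of abundant genes that fell (Aldoc and Tkt) and for the entry enzyme of the pentose phosphate pathway (G6pdx). These were chosen after the values of the members were seen. Other members high in that library, among them Pdk1, are not printed. Each holds 250 bases before to 50 bases after a RefSeq start site on GRCm38.p6, the assembly of mm10, read 5′ to 3′ on the gene's strand. The start site nearest to the 5′ end of the deposited gene was taken, which it met exactly in 5 of the 7 and missed by 583 bases in Slc16a3 and by 281 in G6pdx. Capitals mark ACGTG, the core of the hypoxia response element, on either strand in the first 6, and TGACNNNGC, the core of the antioxidant response element, on either strand in G6pdx. ACGTG also lies inside the E-box CACGTG.
Slc16a3, chr11:120948817-120949116, plus strand: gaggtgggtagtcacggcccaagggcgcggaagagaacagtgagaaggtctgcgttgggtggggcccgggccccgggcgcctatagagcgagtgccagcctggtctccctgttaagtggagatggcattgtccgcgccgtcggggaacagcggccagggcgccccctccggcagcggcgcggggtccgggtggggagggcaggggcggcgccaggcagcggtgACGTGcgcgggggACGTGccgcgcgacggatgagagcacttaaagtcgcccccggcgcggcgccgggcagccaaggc
Ldha, chr7:46845554-46845853, plus strand: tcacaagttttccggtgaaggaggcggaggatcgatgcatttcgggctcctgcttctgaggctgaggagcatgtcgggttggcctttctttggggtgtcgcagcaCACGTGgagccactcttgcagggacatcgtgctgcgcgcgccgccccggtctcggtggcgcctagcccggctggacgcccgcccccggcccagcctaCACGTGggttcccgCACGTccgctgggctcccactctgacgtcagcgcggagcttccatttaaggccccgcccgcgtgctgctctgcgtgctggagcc
Pgk1, chrX:106186850-106187149, plus strand: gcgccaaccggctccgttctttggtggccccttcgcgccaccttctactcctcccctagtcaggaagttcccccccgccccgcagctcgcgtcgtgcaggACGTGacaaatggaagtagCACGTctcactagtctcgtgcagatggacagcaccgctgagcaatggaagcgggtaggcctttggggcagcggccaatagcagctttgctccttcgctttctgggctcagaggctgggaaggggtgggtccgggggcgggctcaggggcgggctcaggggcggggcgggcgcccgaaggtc
Hk2, chr6:82774405-82774704, minus strand: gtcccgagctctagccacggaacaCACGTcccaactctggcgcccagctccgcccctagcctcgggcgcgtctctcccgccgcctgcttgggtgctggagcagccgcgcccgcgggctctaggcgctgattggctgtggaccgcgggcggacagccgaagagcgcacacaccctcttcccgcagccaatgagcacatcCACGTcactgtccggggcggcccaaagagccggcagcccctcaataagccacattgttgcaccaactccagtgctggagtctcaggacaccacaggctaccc
Aldoc, chr11:78323948-78324247, plus strand: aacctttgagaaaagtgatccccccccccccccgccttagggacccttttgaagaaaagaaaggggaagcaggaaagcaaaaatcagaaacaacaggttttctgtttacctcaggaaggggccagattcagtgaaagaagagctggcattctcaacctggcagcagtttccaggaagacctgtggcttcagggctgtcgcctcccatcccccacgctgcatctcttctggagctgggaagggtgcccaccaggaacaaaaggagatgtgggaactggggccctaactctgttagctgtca
Tkt, chr14:30548881-30549180, plus strand: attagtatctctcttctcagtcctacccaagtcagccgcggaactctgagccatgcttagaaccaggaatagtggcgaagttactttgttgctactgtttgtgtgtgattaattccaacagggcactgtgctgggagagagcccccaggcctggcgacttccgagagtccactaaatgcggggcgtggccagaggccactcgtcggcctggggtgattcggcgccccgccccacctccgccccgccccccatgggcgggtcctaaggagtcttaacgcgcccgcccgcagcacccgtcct
G6pdx, chrX:74428831-74429130, minus strand: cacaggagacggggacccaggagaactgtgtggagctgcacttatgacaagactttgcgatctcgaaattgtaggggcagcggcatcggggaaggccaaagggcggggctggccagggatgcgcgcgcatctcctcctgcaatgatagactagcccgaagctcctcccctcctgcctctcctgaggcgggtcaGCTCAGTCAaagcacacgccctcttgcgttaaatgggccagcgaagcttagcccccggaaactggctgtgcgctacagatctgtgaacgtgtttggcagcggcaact

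ACGTG was found at 3 places in the window of Ldha, at 2 each in those of Slc16a3, Pgk1 and Hk2, and at none in those of Aldoc and Tkt. It also lies in the G6pdx window, where it is not marked, and among the other called members in those of Pfkm and Pdk2, which fell, and Slc16a1 and Pdk3, which rose. The windows of Pdk1, Ldhb, Pgd and Taldo1 held none. The motif was thus in 4 of 6 members that rose and in 2 of 6 that fell. A window was found for 31 of the 32 members, and 14 (45.2%) held ACGTG, against 25.1% of 10469 tested genes with 1 window each and 19.6% of all 32841 windows of the table. Replicate 2 was the highest 24 h library for 8 of 14 members tested with it (57.1%) and for 10 of 16 without it (62.5%). TGACNNNGC stood in 3 of 31 member windows (9.68%), those of G6pdx, Slc16a1 and Pdhb, against 14.9% of the tested genes. These are matches of letters and not sites of binding.

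Around the 32 members, other genes of glucose metabolism went both ways. Of 80 listed, 79 were found and 61 passed the filter on low counts. Of the 61, 15 were higher and 11 lower (42.6% called, against 28.2% of all genes tested). In the pentose phosphate pathway 3 of 7 further genes tested rose (42.9%, against 15.2% of all genes tested) and none fell (against 13.0%). H6pd, which makes NADPH inside the endoplasmic reticulum, had 78.8, 82.3 and 73.9 CPM in replicates 1 to 3 at 0 h and 244, 177 and 323 CPM at 24 h, with a log2 fold change of 1.66 ± 0.22 (SE, n = 3 and 3, adjusted p = 0.000914). Among lactate, pyruvate and shuttle genes 6 of 21 rose (28.6%, against 15.2%) and 2 fell (9.52%, against 13.0%). Gpd2, the mitochondrial end of the glycerol phosphate shuttle, had a log2 fold change of 1.16 (adjusted p = 0.00282). Pcx, which turns pyruvate into oxaloacetate, fell 2.05-fold (adjusted p = 0.00223). Slc16a8, a lactate carrier of the retinal pigment epithelium, fell 8.88-fold from a low level (4.10 ± 1.26 to 0.453 ± 0.0506 CPM). Slc16a8 passed the filter on low counts only through its 0 h libraries, so no adjusted p is given for it. It is among the 2 lactate, pyruvate and shuttle genes that fell, so that count rests in part on the filter. Slc16a8 fell beside Rpe65, Rgr, Ttr and Lrat of the ciliary, iris and pigment epithelium list. Of its 9 genes 4 were lower (44.4%, against 13.0%) and 3 higher (33.3%, against 15.2%). That list summed to 222, 369 and 166 CPM at 0 h and 881, 123 and 597 CPM at 24 h, with Dct as its most abundant gene.

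In the list of gluconeogenesis, glycogen, polyol and hexosamine genes 6 of 18 tested were lower (33.3%, against 13.0% of all genes tested) and 3 higher (16.7%, against 15.2%). Sord, sorbitol dehydrogenase, which turns sorbitol of the polyol pathway into fructose, had 169, 107 and 125 CPM in replicates 1 to 3 at 0 h and 36.96, 26.1 and 36.6 CPM at 24 h. It fell 4.03-fold, with a log2 fold change of -2.01 ± 0.21 (SE, n = 3 and 3, adjusted p = 0.000367), and its groups were far apart. The glycogen phosphorylases fell: Pygl 2.49-fold (adjusted p = 0.00524), Pygm 2.44-fold (adjusted p = 0.00305) and Pygb, named after its values were seen, 2.21-fold (adjusted p = 0.00739). Pgm1, a phosphoglucomutase row, rose 3.69-fold, from 11.9 ± 0.102 to 44.1 ± 8.58 CPM (adjusted p = 0.00025). Glucose transport and glycolysis genes outside the 32 were higher in 3 and lower in 3 of 15 tested (20.0% each, against the same 15.2% and 13.0%).

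The hypoxia list, which shares no member with the 32 genes, was higher in 1 (5.0%) and lower in 5 (25.0%) of 20 genes tested, against 15.2% higher and 13.0% lower over all genes tested. Adm, the vasodilator peptide adrenomedullin, was the one called higher. It had 0, 0.501 and 0 CPM in replicates 1 to 3 at 0 h and 8.18, 20.8 and 6.34 CPM at 24 h. Adm passed the filter on low counts only through its 24 h libraries, so no adjusted p is given for it. The 5.0% higher rests on Adm alone, so it is not read against the share of all genes tested. The genes that fell were Bnip3l, a mitophagy receptor (2.43-fold, adjusted p = 0.00153), Vhl, which marks hypoxia-inducible factor for destruction (1.84-fold, adjusted p = 0.00226), P4ha2, a collagen prolyl hydroxylase (2.83-fold, adjusted p = 0.00382), Ndrg1 (1.84-fold, adjusted p = 0.0113) and Car12, a carbonic anhydrase (6.998-fold, adjusted p = 0.0346). The median log2 fold change of the list was -0.38, against -0.03 over all genes tested.

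Immune cell markers also differed between the times. The 11 neutrophil markers found summed to 6.21, 13.03 and 16.6 CPM at 0 h and 96.9, 129 and 183 CPM at 24 h. The most abundant, Itgam, had 1.002, 2.91 and 7.20 CPM in replicates 1 to 3 at 0 h and 24.8, 25.9 and 61.1 CPM at 24 h. Of the 11, 6 passed the filter on low counts, some of them only through their 24 h libraries, so no count of rises is given. The macrophage markers, led by Lyz2, went both ways. Of 10 tested 2 were higher (20.0%, against 15.2% of all genes tested) and 3 lower (30.0%, against 13.0%). They summed to 76.96, 151 and 177 CPM at 0 h and 132, 110.2 and 195 CPM at 24 h. Red cell markers were near 0, at 1.60, 0.601 and 0.854 CPM at 0 h and 8.82, 7.97 and 3.07 CPM at 24 h summed. The part of these cells in the rises of Hk2, Slc16a1, Pgd, Taldo1 and G6pdx was not tested.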

How the data were processed

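Whole-number read counts per gene, 1 table per library, were deposited by the authors and used as they stand. The submitters' processing notes name TopHat2 2.1.0, HTSeq 0.6.1p1, SAMtools 1.4, bedtools 2.17, Trim Galore 0.4.4, FastQC, edgeR 3.16.5 and the mm10 build, with the annotation, strand setting and treatment of reads with several matches not given in the sources used here. The deposited RPKM values equal count over length over summed counts and entered no test. Gene spans are as deposited, on mm10. Of the 32 members 13 overlap another row of the table, as do 6 of the 12 called (Aldoc, Tkt, Pdk1, Pdk2, Pfkm and G6pdx). Of 2 library kits in the labels only 1 is called stranded, so reads of overlapping genes may not have been told apart.

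Low counts were filtered with filterByExpr (13956 genes left), libraries scaled by TMM, and the times compared in edgeR 4.0.16 under R 4.3.3 with the two-sided quasi-likelihood test and no covariate, with Benjamini-Hochberg adjustment over all genes tested and calls at an adjusted p under 0.05. Adjusted p-values of genes are from that test wherever no other is stated. SE is the log2 fold change over the square root of F, and is approximate. The levels per kilobase divide CPM by the deposited gene length. This length is 1702 bases for Aldoc and 9621 for Pfkfb2, against 2786 and 4425 in their longest GENCODE M21 coding transcripts. Orders of genes per kilobase and sizes of isoenzyme shares depend on the length taken. The method was tested on simulated data.

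The labels number the libraries as replicates, and nothing says whether these came from separate animals, so p-values measure the spread between these libraries. No 2 libraries of one time agreed within sampling noise. Alternatives were DESeq2 (1.42.0), limma-voom (limma 3.58.1), RLE, library totals, TMM without crystallin and fiber genes, 2 other filters, a 1.5-fold test, a replicate block, a photoreceptor covariate and leaving out each library. The members, lists and tests were chosen with earlier results of these data known. All 32 members could be named; values per library are given for those called, those called in at least 3 alternatives and the most abundant of each role, and Slc2a3, Eno1, Eno2, Pfkfb2, Pdha1 and Slc16a3 were added after their values were seen. Of the other pathway and hypoxia lists the called genes with the 8 lowest p were named, and of marker lists that bear on a member the most abundant gene (1 such gene is not reported here), with Krt12, Krt5, Rpe65, Rgr, Ttr and Lrat added after their values were seen.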

Additional observations from a re-analysis of the deposited data

How the results depend on the processing

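Of the 12 called members, Aldoc, Tkt, Pdk1, Pdk2 and Pgd were called under all 16 alternatives, Pfkm, Ldhb and Taldo1 under all but the test against a 1.5-fold change, and Hk2, Slc16a1, Pdk3 and G6pdx under 14, 13, 8 and 10 of them. No called member changed direction. The higher members numbered 2 to 6 with 1 library left out (2 without 0 h replicate 3, 3 without 24 h replicate 1) and 1 against a 1.5-fold change; the lower members numbered 6 or 7 with 1 library left out, and 4 against a 1.5-fold change. Over all genes, the test against a 1.5-fold change called 1060 higher and 629 lower, and leaving out 1 library gave 1551 to 1897 higher and 1041 to 1648 lower, the fewest lower without 0 h replicate 3. With all 32 members, the difference in the share of members' counts ran from -0.272 (over counts without crystallin and fiber genes) to -0.0763. For that full set it kept its direction in every setting tried, as did the isoenzyme shares. No setting tried for the members' share took the Rn45s row out of all counts. Without Aldoc and Tkt the difference had the opposite sign, at 0.068. Of the settings, library totals moved the median log2 fold change of all genes from -0.03 to 0.06.

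Whether replicate numbers pair the libraries was not settled. Across genes, deviations from the group means correlated at 0.09, 0.22 and 0.41 between libraries of the same number. Each 0 h library correlated best with the 24 h library of its own number. Of the 24 h libraries, however, replicate 1 correlated best with 0 h replicate 2 (0.18). With a replicate block 7 members were higher and 6 lower (2315 and 2174 genes), and Hk1 was the member gained (log2 fold change 0.65, adjusted p = 0.00685). At these depths 3 counts correspond to 0.276 to 0.372 CPM, and Eno1 was the member near that level.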
